A study of Homo sapiens with 12 samples.

Results

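The 41 genes described here carry cells from G1 into S phase and copy the DNA, and they were taken as a named list: D and E cyclins with the phosphatase CDC25A, E2F factors, genes that license and fire replication origins, genes of the primase, the sliding clamp and its loader, genes of nucleotide supply, and UHRF1 and SLBP. They are 41 of 57002 human genes with a row, of which 30599 held any counts, and 40 of the 15831 genes tested. Cyclin D2 (CCND2) held 31 counts over the 12 libraries, 0 to 0.521 CPM, and was not tested. The cells were THP-1, a human acute myeloid leukaemia line of monocytic type. They were treated for 2 hours with AZ5576, known as an inhibitor of the kinase CDK9, with THZ531, known as an inhibitor of CDK12 and CDK13, with YKL5124, known as an inhibitor of CDK7, or with the vehicle DMSO, in 3 libraries each. All 12 libraries, DMSO included, came from cells given 1 mM 4-thiouridine, a uridine analogue that marks new RNA, for the last 10 minutes. Each treatment used 1000000 cells, and Drosophila S2 spike-in material was added to the RNA at 5%. Only total counts were used, so new RNA was not analysed here. No dose is given in the sources used here, and all cells are of 1 line. Whether the 3 libraries of a group came from separate cultures is not stated, and p-values here measure the spread between libraries alone, part or all of which can be technical. The DMSO columns carry the name UT, which the labels do not use. Since every one of the 12 samples is labelled with this table, the 3 UT columns were read as DMSO, a step that plays no role where 2 inhibitors are compared.

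Progress into S phase is known to rest on D and E cyclins, which with their kinases phosphorylate the retinoblastoma protein and free E2F factors to turn on genes of DNA synthesis. ORC, CDC6 and CDT1 load the MCM helicase on origins in G1, and the kinase CDC7 with MCM10, CDC45 and the GINS complex then switch the helicase on. Primase lays down primers, RFC loads the PCNA clamp, and ribonucleotide reductase and thymidylate synthase supply nucleotides.

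Human counts per library ranged from 5048321 to 12743576, with AZ5576 replicate 2 the lowest, and the 41 genes together held 18937 to 51513 counts. Levels are counts per 1000000 (CPM) scaled by TMM, which centres each comparison on the middle of all human genes. Levels are compared between libraries and not between genes. Of 16 markers of monocytic and myeloid leukaemia cells, 15 averaged at least 1 CPM, with a summed level of 1949.9 to 2360.0 CPM per library, while all 5 erythroid markers and the T cell markers CD3E, CD3G, CD2 and CD8A were at 0 counts. The 4 B cell markers summed to 7.73 to 12.9 CPM, the 5 epithelial markers to 0.286 to 1.52 CPM and the 5 fibroblast markers to 0 to 0.428 CPM. The last exons of CCNE2, GINS2, RFC4 and TYMS overlap those of INTS8, GSE1, EIF4A2 and ENOSF1 on the other strand. The strand setting is not given in the sources used here, so whether reads of these pairs were counted apart or mixed is not known. For CCNE1, ORC6, MCM7, GINS3, RFC4, PRIM1 and RRM1, the row with the most counts is annotated to a transcript that is not of the protein-coding type.

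E2F sites near the start are the textbook feature of this gene set, so the promoters of 6 members that moved in different directions, chosen after their values were seen, are shown. RefSeq windows (GRCh38.p14) of 250 bases before to 50 after the start were found for 34 members, and for CCND1, CCND2, CCNE2, E2F8, MCM4, MCM5 and GINS4 there was no entry. The letters TTTCCCGC, TTTGGCGC, TTTCGCGC or TTTGCCGC, on either strand, stood in the windows of 21 of these 34 genes, or 61.8%, against 3.99% of all 27305 genes with a window and 6.76% of the 9577 tested genes with one. Each stretch runs from 100 bases before to 20 bases after the start, 5′ to 3′, and capitals mark these letters.
CDC25A: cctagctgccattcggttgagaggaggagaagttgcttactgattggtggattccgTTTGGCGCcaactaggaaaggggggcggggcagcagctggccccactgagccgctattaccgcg
CDC6: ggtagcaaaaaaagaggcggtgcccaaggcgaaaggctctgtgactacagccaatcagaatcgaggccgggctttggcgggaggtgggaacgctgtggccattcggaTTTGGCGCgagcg
E2F1: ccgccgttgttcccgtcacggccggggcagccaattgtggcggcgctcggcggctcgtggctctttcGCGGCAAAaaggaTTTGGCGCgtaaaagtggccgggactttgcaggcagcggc
RFC3: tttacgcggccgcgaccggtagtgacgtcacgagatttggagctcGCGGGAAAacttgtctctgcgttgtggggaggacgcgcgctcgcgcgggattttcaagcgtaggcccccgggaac
PCNA: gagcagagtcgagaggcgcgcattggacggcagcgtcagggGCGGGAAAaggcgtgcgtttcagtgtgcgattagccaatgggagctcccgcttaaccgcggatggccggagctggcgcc
TYMS: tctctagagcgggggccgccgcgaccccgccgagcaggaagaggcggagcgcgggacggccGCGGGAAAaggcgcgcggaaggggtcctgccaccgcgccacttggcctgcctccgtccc
The stretches lie at chr3:48188398-48188517, minus strand (CDC25A), chr17:40287779-40287898, plus strand (CDC6), chr20:33686366-33686485, minus strand (E2F1), chr13:33818049-33818168, plus strand (RFC3), chr20:5126603-5126722, minus strand (PCNA) and chr18:657553-657672, plus strand (TYMS). The match begins 44 bases before the start in CDC25A, 55 in RFC3, 59 in PCNA and 39 in TYMS, E2F1 holds 2 matches, and that of CDC6 lies after the start. CDC25A and CDC6 were lower under all 3 inhibitors, RFC3 and PCNA were higher under THZ531, and TYMS was higher under AZ5576 and THZ531, as given below with their values. The letters stood in 11 of 19 members lower under YKL5124 and in 10 of 15 that were not lower, and in 11 of 18 members lower under THZ531 and in 7 of 10 that were higher. The letters CCAAT, on either strand, stood in 23 of the 34 windows and in 39.7% of all genes with a window. The letters GGGCGG, which can share bases with an E2F-type match, stood in 26 of the 34 and in 48.3% of all genes with a window, or 76.8% of the tested ones. A match is a run of letters and was not tested as a binding site.

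All 3 inhibitors lowered more of these genes than they raised, and they differed in which ones. In edgeR's quasi-likelihood test with Benjamini-Hochberg adjustment over all genes tested, AZ5576 lowered 16 of 40 members and raised 6, that is 40% and 15%, against 23.1% and 18.6% of all genes tested. THZ531 lowered 21 and raised 12, or 52.5% and 30%, against 32.9% and 30.4% of all genes tested. YKL5124 lowered 21 and raised 1, or 52.5% and 2.5%, against 13.5% and 7.25% of all genes tested. The median log2 fold change of the 40 genes was -0.14 under AZ5576, -0.25 under THZ531 and -0.31 under YKL5124, while that of all genes tested was 0.01, -0.00 and -0.00. The libraries of the 2 groups did not overlap for 20 members under AZ5576, 35 under THZ531 and 26 under YKL5124, against 47.8%, 67% and 35.1% of all genes tested. The 3 comparisons share the DMSO libraries. In these bulk libraries, fewer cells in a cycle phase and less RNA per cell cannot be told apart.

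**Figure D1:**
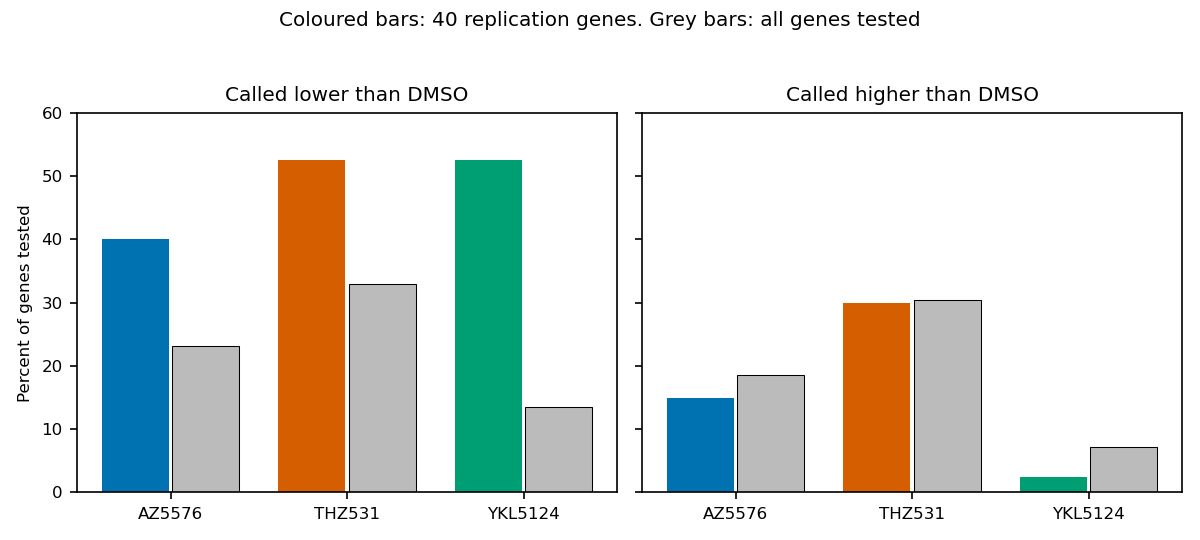
Percent of the 40 tested replication genes (coloured) and of all 15831 tested genes (grey) called lower (left) or higher (right) than DMSO at an adjusted p under 0.05. YKL5124 lowered 52.5% of the replication genes and 13.5% of all genes tested.

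Under every inhibitor, 10 members fell: the cyclin CCNE1, the phosphatase CDC25A, the factors E2F2, E2F7 and E2F8, the licensing genes CDC6 and MCM3, the firing genes CDC7 and MCM10, and the clamp loader gene RFC4. That is 10 of 40, while 6.91% of all genes tested were lower under all 3. The AZ5576 calls of MCM3, CDC7, MCM10 and RFC4 were each lost when certain single libraries were left out, as named with each gene. So were the THZ531 call of MCM3 and the YKL5124 call of RFC4. No member rose under all 3 in edgeR's test, as 2.21% of all genes did. CCND3, a D cyclin, was the member called under none, with log2 fold changes of 0.04, -0.06 and -0.07 under AZ5576, THZ531 and YKL5124, and 25.9% of all genes were called under none. Under THZ531, CCND3 was called lower with library size alone (-0.35, adjusted p = 1.13e-05) and with scaling to fly counts (-0.43, adjusted p = 0.000865). Of the 5 members called in opposite directions under different inhibitors, GINS3 and SLBP were lower under AZ5576 and YKL5124 and higher under THZ531, ORC6 and RFC3 were higher under THZ531 and lower under YKL5124, and GINS4 was lower under THZ531 and higher under the other two, though another of its rows was lower under all 3, as given with the rows. With fly scaling, RFC3 alone of these 5 was still called higher under any inhibitor.

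Scaling sets how many members count as higher. With library size alone in place of TMM, the median of all genes moved to -0.12 under AZ5576, -0.29 under THZ531 and -0.02 under YKL5124, and with scaling to fly counts it moved to -0.17, -0.37 and -0.07, so directions here are relative to the middle of all genes. Library size alone gave 2 members higher and 20 lower under AZ5576, 6 and 26 under THZ531, and 1 and 24 under YKL5124. Fly scaling gave 0 higher and 19 lower under AZ5576, 2 and 27 under THZ531, and 0 and 20 under YKL5124. Of the members called higher with TMM, library size alone ended the AZ5576 calls of MCM2, GINS4, RRM1 and TK1 and the THZ531 calls of MCM4, MCM5, MCM7, GINS2, TK1 and SLBP. Fly scaling ended these too, with those of POLA1 and TYMS under AZ5576, of ORC6, MCM2, GINS3 and TYMS under THZ531 and of GINS4 under YKL5124.

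**Figure D2:**
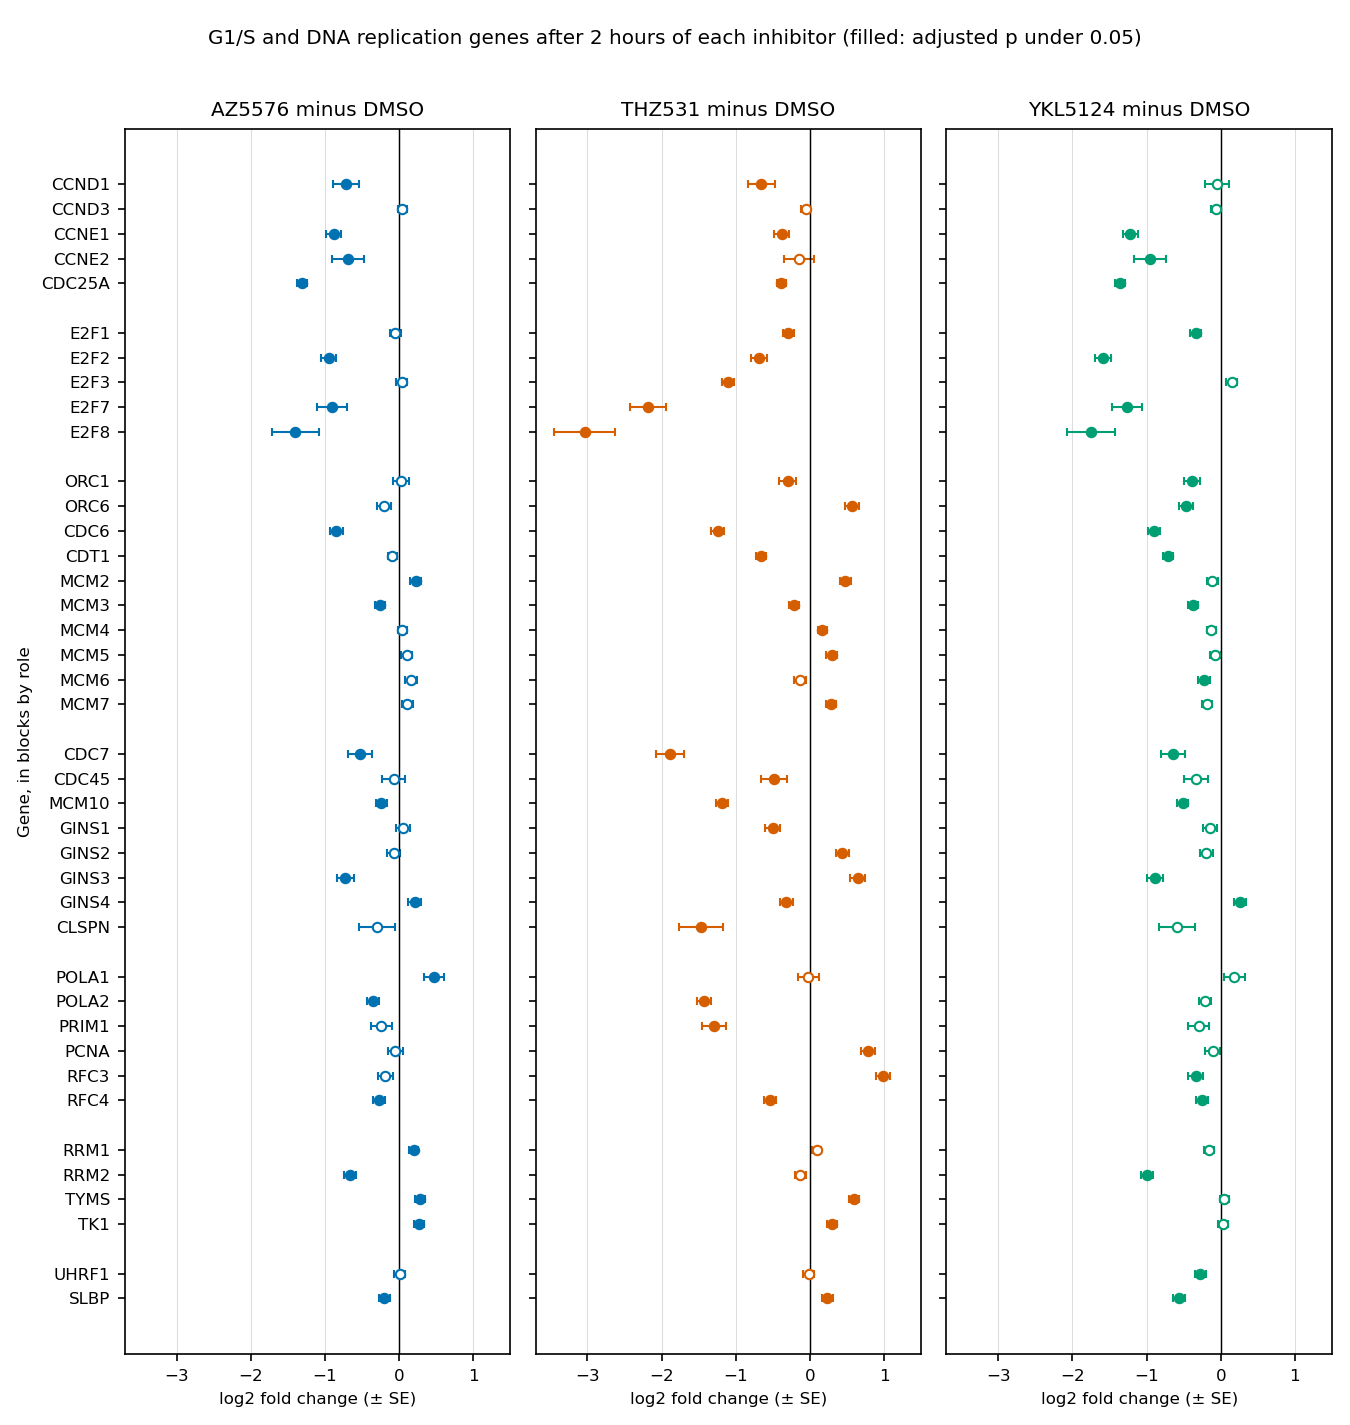
log2 fold change against DMSO, with its standard error (bars), of the 40 tested members under AZ5576, THZ531 and YKL5124, in blocks by role, with filled points for an adjusted p under 0.05. The E2F block is lower under THZ531 throughout, and the points of ORC6, GINS3, PCNA and RFC3 lie right of 0 under THZ531 alone.

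Gene positions below are those of GENCODE v29 on GRCh38. Among cyclins and their activator, AZ5576 lowered 4 of 5 tested genes, THZ531 lowered 3, YKL5124 lowered 3, and none of the 5 was raised. Of all genes tested, 23.1%, 32.9% and 13.5% were lower under AZ5576, THZ531 and YKL5124, and 18.6%, 30.4% and 7.25% were higher. No role was tested as a set. CDC25A (chr3:48157146-48188402), the phosphatase that activates CDK2, fell most under AZ5576 and YKL5124. CDC25A had 42.3, 41.8 and 42.0 CPM in AZ5576 libraries, 78.5, 84.4 and 77.2 CPM in THZ531 libraries and 41.7, 41.5 and 38.8 CPM in YKL5124 libraries, against 103, 107 and 104 CPM in DMSO libraries. The 3 inhibitor groups each lay below DMSO with no overlap, and those of AZ5576 and YKL5124 lay far below THZ531. Relative to DMSO, its log2 fold change was -1.31 ± 0.07 (SE) under AZ5576, -0.38 ± 0.07 under THZ531 and -1.36 ± 0.07 under YKL5124, with adjusted p of 2.5e-15, 8.38e-06 and 2.17e-15. AZ5576 against THZ531 gave -0.93 ± 0.07 (adjusted p = 2.9e-12), and AZ5576 against YKL5124 gave 0.05 ± 0.08 (adjusted p = 0.702).

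CCNE1 (chr19:29811898-29824308) encodes cyclin E1, the partner of CDK2 at the start of S phase. CCNE1 had 16.5, 19.8 and 16.9 CPM in AZ5576 libraries, 24.5, 23.5 and 25.7 CPM in THZ531 libraries and 14.5, 13.2 and 13.6 CPM in YKL5124 libraries, against 36.2, 30.1 and 29.6 CPM in DMSO libraries. No group overlapped another. Its log2 fold change was -0.88 ± 0.10 under AZ5576, -0.38 ± 0.10 under THZ531 and -1.22 ± 0.10 under YKL5124, and THZ531 against YKL5124 gave 0.84 ± 0.11 (adjusted p = 1.3e-07). CCNE2, which encodes cyclin E2, was low, at 1.83 to 4.82 CPM, and was lower under AZ5576 (-0.69, adjusted p = 0.00959) and YKL5124 (-0.96, adjusted p = 0.00141). The AZ5576 call for CCNE2 was lost with DESeq2 (adjusted p = 0.0763) and without DMSO replicate 1 (adjusted p = 0.0513) or AZ5576 replicate 1 (adjusted p = 0.0589). CCND1, which encodes cyclin D1, fell under AZ5576 (-0.71) and THZ531 (-0.66), with -0.06 under YKL5124.

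All 5 E2F genes fell under THZ531, 4 under YKL5124 and 3 under AZ5576, against 32.9%, 13.5% and 23.1% of all genes tested. E2F1, E2F2 and E2F3 are known as activators of S-phase genes, and E2F7 and E2F8 as repressors that act later. E2F2 (chr1:23506430-23531220) fell under each inhibitor. E2F2 had 13.0, 13.7 and 15.0 CPM in AZ5576 libraries, 16.9, 16.7 and 16.6 CPM in THZ531 libraries and 8.73, 8.76 and 9.32 CPM in YKL5124 libraries, against 25.7, 30.1 and 25.2 CPM in DMSO libraries. Each inhibitor group lay below DMSO, and the YKL5124 group was the lowest. The log2 fold change of E2F2 was -0.95 ± 0.10 under AZ5576, -0.69 ± 0.10 under THZ531 and -1.59 ± 0.11 under YKL5124, and AZ5576 against YKL5124 gave 0.64 ± 0.12 (adjusted p = 0.00047).

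E2F3 (chr6:20401906-20493715) fell under THZ531. E2F3 had 124, 132 and 118 CPM in AZ5576 libraries, 58.6, 51.9 and 58.5 CPM in THZ531 libraries and 149, 127 and 127 CPM in YKL5124 libraries, against 118, 130.4 and 115 CPM in DMSO libraries. The THZ531 group lay below every other library, and the other groups overlapped DMSO. THZ531 gave -1.11 ± 0.08 (adjusted p = 2.83e-13), whereas the log2 fold change was 0.03 (adjusted p = 0.742) under AZ5576 and 0.15 (adjusted p = 0.155) under YKL5124. The difference between THZ531 and YKL5124 was -1.25 ± 0.08 (adjusted p = 1.81e-14).

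E2F7 (chr12:77021247-77065580) was low and fell under each inhibitor. E2F7 had 3.20, 3.57 and 3.67 CPM in AZ5576 libraries, 1.30, 1.65 and 1.28 CPM in THZ531 libraries and 3.52, 2.70 and 2.08 CPM in YKL5124 libraries, against 7.34, 4.85 and 7.08 CPM in DMSO libraries. Each inhibitor group lay below DMSO, and for the row used the THZ531 libraries were the lowest. The log2 fold change of that row was -0.91 ± 0.20 under AZ5576, -2.19 ± 0.25 under THZ531 and -1.26 ± 0.21 under YKL5124. With all rows of E2F7 summed it was -0.88 under AZ5576, -0.77 (adjusted p = 0.00114) under THZ531 and -1.16 under YKL5124, so THZ531 then gave the smallest fall of the 3 inhibitors. E2F8 ran from 0.107 to 6.13 CPM and had the most negative log2 fold change of the 40 members, -3.04 ± 0.41 under THZ531, at few counts. E2F1 was lower under THZ531 (-0.29) and YKL5124 (-0.34), with -0.05 (adjusted p = 0.632) under AZ5576.

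**Figure D3:**
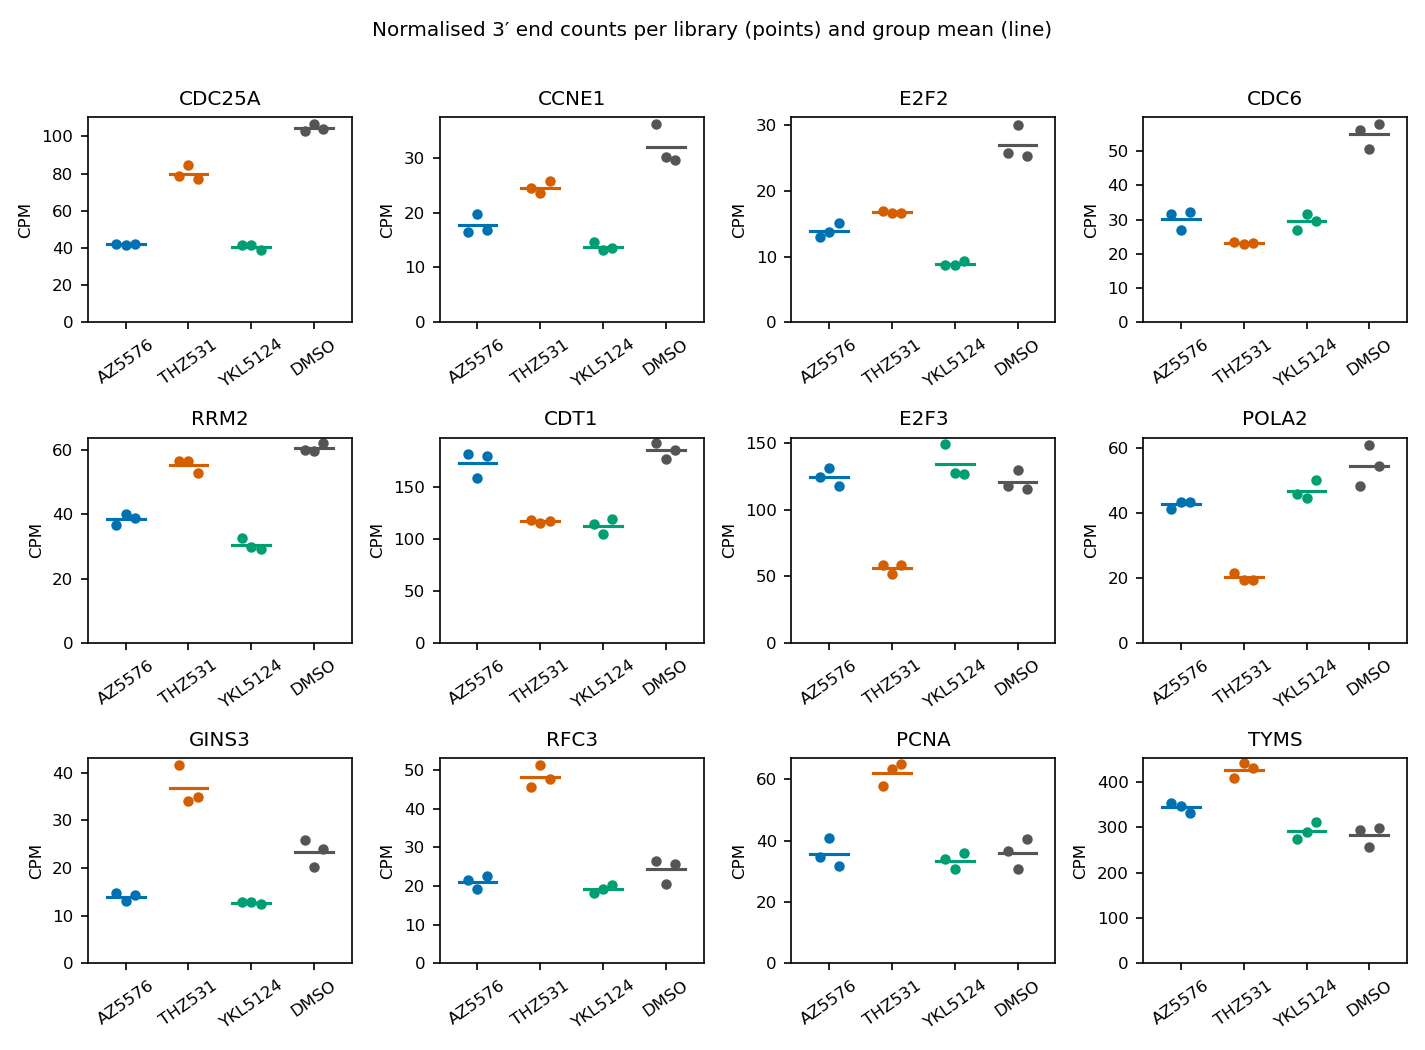
Level in CPM of 12 members in each library (points) with the mean of 3 libraries (line), for AZ5576, THZ531, YKL5124 and DMSO, on linear axes from 0. CDC25A, CCNE1, E2F2 and CDC6 lie below DMSO in every inhibitor library, E2F3 and POLA2 are lowest in THZ531 libraries, and GINS3, RFC3, PCNA and TYMS are highest there.

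Of the 10 licensing genes, AZ5576 lowered 2 and raised 1, THZ531 lowered 4 and raised 5, and YKL5124 lowered 6 and raised none. That is 20% lower and 10% higher under AZ5576, 40% and 50% under THZ531, and 60% and 0% under YKL5124. All genes tested gave 23.1% and 18.6%, 32.9% and 30.4%, and 13.5% and 7.25%. CDC6 (chr17:40287633-40304657), the ATPase that brings the helicase to ORC, fell under each inhibitor. CDC6 had 31.5, 26.9 and 32.1 CPM in AZ5576 libraries, 23.6, 22.9 and 23.2 CPM in THZ531 libraries and 27.0, 31.7 and 29.6 CPM in YKL5124 libraries, against 56.1, 50.7 and 58.0 CPM in DMSO libraries. All inhibitor libraries lay below all DMSO libraries, and the THZ531 group was the lowest. CDC6 gave a log2 fold change of -0.85 ± 0.08 under AZ5576, -1.24 ± 0.09 under THZ531 and -0.90 ± 0.08 under YKL5124, and THZ531 was below YKL5124 by -0.35 ± 0.10 (adjusted p = 0.00237), a difference not called with rows summed (-0.23, adjusted p = 0.0709).

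CDT1 (chr16:88803213-88809258), which loads the helicase with CDC6, was lower under THZ531 and YKL5124. CDT1 had 181, 158 and 179 CPM in AZ5576 libraries, 117, 115 and 117 CPM in THZ531 libraries and 114, 104 and 119 CPM in YKL5124 libraries, against 192, 177 and 185 CPM in DMSO libraries. The THZ531 and YKL5124 libraries lay below all others, and AZ5576 overlapped DMSO. CDT1 gave log2 fold changes of -0.67 ± 0.07 (adjusted p = 6.82e-10) under THZ531 and -0.72 ± 0.07 (adjusted p = 1.37e-09) under YKL5124, and -0.09 (adjusted p = 0.286) under AZ5576. With library size alone CDT1 was called lower under AZ5576 too (-0.21, adjusted p = 0.00989). AZ5576 against YKL5124 gave 0.63 ± 0.07 (adjusted p = 5.01e-08).

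MCM3 (chr6:52264009-52284881), a helicase subunit, fell a little under each inhibitor. MCM3 had 385, 402 and 417 CPM in AZ5576 libraries, 426, 412 and 405 CPM in THZ531 libraries and 363, 389 and 360.0 CPM in YKL5124 libraries, against 441, 558 and 442 CPM in DMSO libraries. Each inhibitor group lay below DMSO, where replicate 2 stood above the others. Its log2 fold change was -0.26, -0.21 and -0.37 under AZ5576, THZ531 and YKL5124, and without DMSO replicate 2 those under AZ5576 (-0.14, adjusted p = 0.0677) and THZ531 (-0.09, adjusted p = 0.18) were not called. Of the other helicase subunits, MCM2 (0.47), MCM4 (0.17), MCM5 (0.29) and MCM7 (0.28) were higher under THZ531, but with fly scaling the values of MCM4 (-0.20), MCM5 (-0.076) and MCM7 (-0.084) had the other sign and none of the 4 was called (0.11 for MCM2, adjusted p = 0.474). The MCM4 call was also lost without DMSO replicate 2 (adjusted p = 0.0814), THZ531 replicate 1 (adjusted p = 0.129) or THZ531 replicate 2 (adjusted p = 0.09). Under AZ5576, MCM2 was higher (0.22), and this call was lost without AZ5576 replicate 2 (0.16, adjusted p = 0.0788) or DMSO replicate 2 (0.17, adjusted p = 0.0787), and with library size alone (0.10) or fly scaling (0.028). MCM6 was lower under YKL5124 (-0.22, adjusted p = 0.0455), a call lost with DESeq2 (adjusted p = 0.166), with rows summed (adjusted p = 0.138), with RLE, upper quartile or fly scaling (adjusted p of 0.0815, 0.152 and 0.106), with the 6 libraries compared alone (adjusted p = 0.0735) and when any single library of DMSO or THZ531, or YKL5124 replicate 1 or 2, was left out, with adjusted p of 0.056 to 0.188. Of the origin recognition genes, ORC1 was lower under THZ531 (-0.30) and YKL5124 (-0.39), while ORC6 was higher under THZ531 (0.56) and lower under YKL5124 (-0.47). With fly scaling the THZ531 value of ORC6 was 0.20 (adjusted p = 0.191) and was not called. Without DMSO replicate 3, ORC1 was called under neither THZ531 (-0.19, adjusted p = 0.178) nor YKL5124 (-0.29, adjusted p = 0.103), and with DESeq2 it was called under neither (adjusted p = 0.0787 and 0.0613).

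Of the 8 firing genes, AZ5576 lowered 3 and raised 1, THZ531 lowered 6 and raised 2, and YKL5124 lowered 3 and raised 1. That is 37.5% lower and 12.5% higher under AZ5576, 75% and 25% under THZ531, and 37.5% and 12.5% under YKL5124. All genes tested gave 23.1% and 18.6%, 32.9% and 30.4%, and 13.5% and 7.25%. CDC7 (chr1:91500893-91525764), the kinase that phosphorylates the loaded helicase, fell most under THZ531. CDC7 had 7.03, 11.9 and 7.35 CPM in AZ5576 libraries, 2.99, 3.31 and 3.21 CPM in THZ531 libraries and 9.21, 6.99 and 6.74 CPM in YKL5124 libraries, against 11.0, 12.7 and 11.9 CPM in DMSO libraries. The THZ531 group lay below all other libraries, while 1 AZ5576 library overlapped DMSO. CDC7 gave log2 fold changes of -0.53 ± 0.16 under AZ5576, -1.89 ± 0.19 under THZ531 and -0.65 ± 0.16 under YKL5124, and AZ5576 against THZ531 gave 1.36 ± 0.21 (adjusted p = 1.92e-06). The AZ5576 call was lost without AZ5576 replicate 1 (adjusted p = 0.0866) or replicate 3 (adjusted p = 0.0628), and with DESeq2 (adjusted p = 0.0661).

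MCM10 (chr10:13161554-13211104), which helps to start the active helicase, also fell most under THZ531. MCM10 had 59.5, 55.9 and 54.3 CPM in AZ5576 libraries, 27.9, 30.5 and 30.2 CPM in THZ531 libraries and 48.9, 45.6 and 46.6 CPM in YKL5124 libraries, against 70.0, 60.8 and 69.8 CPM in DMSO libraries. No group overlapped another. MCM10 gave log2 fold changes of -0.24 ± 0.08 under AZ5576, -1.18 ± 0.08 under THZ531 and -0.51 ± 0.08 under YKL5124, and THZ531 was below YKL5124 by -0.67 ± 0.08 (adjusted p = 6.44e-08). The AZ5576 value was not called without DMSO replicate 1 (adjusted p = 0.0561), DMSO replicate 3 (adjusted p = 0.0539) or AZ5576 replicate 3 (adjusted p = 0.0617).

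GINS3 (chr16:58295080-58406144), a subunit of the GINS complex, moved in opposite directions. GINS3 had 14.7, 13.1 and 14.3 CPM in AZ5576 libraries, 41.5, 34.0 and 34.9 CPM in THZ531 libraries and 12.9, 12.9 and 12.4 CPM in YKL5124 libraries, against 25.9, 20.2 and 23.9 CPM in DMSO libraries. Every THZ531 library lay above DMSO, and every AZ5576 and YKL5124 library below it. GINS3 gave log2 fold changes of -0.72 ± 0.11 under AZ5576 (adjusted p = 4.48e-06), 0.64 ± 0.10 under THZ531 (adjusted p = 1.52e-06) and -0.89 ± 0.11 under YKL5124 (adjusted p = 4.3e-07). With fly scaling the THZ531 value was 0.28 (adjusted p = 0.0701) and was not called. AZ5576 against THZ531 gave -1.37 ± 0.11 (adjusted p = 5.58e-12), and THZ531 against YKL5124 gave 1.53 ± 0.11 (adjusted p = 4.63e-13). Of the other subunits, under THZ531, GINS1 (-0.50) and GINS4 (-0.32) fell and GINS2 (0.44) rose. GINS4 was higher under AZ5576 (0.21, adjusted p = 0.0487) and YKL5124 (0.26, adjusted p = 0.0272), and each call was lost with many single libraries left out. The AZ5576 call was lost when any single library of DMSO or YKL5124, or AZ5576 replicate 3, was left out, with log2 fold changes of 0.12 to 0.24. The YKL5124 call was lost without DMSO replicate 1 or 2 or YKL5124 replicate 1 or 3, with log2 fold changes of 0.21 to 0.25. Both calls were lost with rows summed (adjusted p = 0.109 and 0.0596), and the AZ5576 call with DESeq2 (adjusted p = 0.102). The row used, tested on its own, gave 0.20 (adjusted p = 0.0948) and 0.25 (adjusted p = 0.0546), and another row of GINS4 was lower in both comparisons. CLSPN, the checkpoint mediator claspin, was low, at 0.963 to 3.46 CPM, and fell under THZ531 (-1.47). CDC45, part of the active helicase, was lower under THZ531 (-0.48, adjusted p = 0.0159), a call lost with DESeq2 (adjusted p = 0.0605) and without DMSO replicate 1 (adjusted p = 0.0898).

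Of the 6 genes of primase, clamp and clamp loader, AZ5576 lowered 2 and raised 1, THZ531 lowered 3 and raised 2, and YKL5124 lowered 2. That is 33.3% lower and 16.7% higher under AZ5576, 50% and 33.3% under THZ531, and 33.3% and 0% under YKL5124. All genes tested gave 23.1% and 18.6%, 32.9% and 30.4%, and 13.5% and 7.25%. POLA1 and POLA2 encode subunits of the polymerase that extends primers. POLA1 had 13.9, 19.8 and 14.4 CPM in AZ5576 libraries, 11.6, 9.48 and 11.9 CPM in THZ531 libraries and 13.7, 10.5 and 13.7 CPM in YKL5124 libraries, against 10.9, 12.5 and 10.1 CPM in DMSO libraries. The AZ5576 group of POLA1 (chrX:24693919-24996986) lay above DMSO, with replicate 2, the library of lowest depth, the highest. POLA1 gave 0.47 ± 0.14 (adjusted p = 0.0067) under AZ5576, against -0.02 under THZ531 and 0.18 under YKL5124, neither called. With fly scaling POLA1 was not called under AZ5576 (0.31, adjusted p = 0.137) and was called lower under THZ531 (-0.38, adjusted p = 0.0443).

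POLA2 had 41.2, 43.6 and 43.4 CPM in AZ5576 libraries, 21.6, 19.5 and 19.5 CPM in THZ531 libraries and 45.8, 44.6 and 50.2 CPM in YKL5124 libraries, against 48.2, 61.1 and 54.5 CPM in DMSO libraries. THZ531 libraries lay below all others for POLA2 (chr11:65261762-65305589), with -1.43 ± 0.09 (adjusted p = 5.79e-14), and AZ5576 libraries lay below DMSO, with -0.35 ± 0.08 (adjusted p = 0.00125). The log2 fold change under YKL5124 was -0.21 (adjusted p = 0.0657). POLA2 was called lower there with library size alone (-0.23, adjusted p = 0.0464) and with no filter (-0.24, adjusted p = 0.0457). It was also called without DMSO replicate 1 (-0.30, adjusted p = 0.0156) or YKL5124 replicate 3 (-0.27, adjusted p = 0.0462). PRIM1, the catalytic primase subunit, fell under THZ531 (-1.30), with -0.24 and -0.30 under AZ5576 and YKL5124, neither called. PRIM1 was called lower under YKL5124 without YKL5124 replicate 1 (-0.57, adjusted p = 0.000944), with rows summed (-0.34, adjusted p = 0.0467) and with no filter (-0.32, adjusted p = 0.0204). Under AZ5576 it was called lower with library size alone (-0.37, adjusted p = 0.044) and fly scaling (-0.41, adjusted p = 0.0122). The row used for PRIM1 ends at chr12:56746033, and the gene, on the minus strand, at chr12:56731596.

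RFC3 and RFC4 encode subunits of the clamp loader and moved apart under THZ531. RFC3 had 21.6, 19.2 and 22.5 CPM in AZ5576 libraries, 45.6, 51.3 and 47.7 CPM in THZ531 libraries and 18.2, 19.3 and 20.2 CPM in YKL5124 libraries, against 26.5, 20.6 and 25.8 CPM in DMSO libraries. The THZ531 libraries of RFC3 (chr13:33818049-33966558) lay above all others, with 0.98 ± 0.09 (adjusted p = 1.77e-10), and THZ531 against YKL5124 gave 1.32 ± 0.10 (adjusted p = 9.36e-13). RFC3 was lower under YKL5124 (-0.34, adjusted p = 0.0162), a call lost without DMSO replicate 1 (adjusted p = 0.101), DMSO replicate 3 (adjusted p = 0.0767) or YKL5124 replicate 1 (adjusted p = 0.0567), with DESeq2 (adjusted p = 0.0753), with rows summed (adjusted p = 0.154) or with upper quartile scaling (adjusted p = 0.0512). RFC4 had 90.8, 83.0 and 81.5 CPM in AZ5576 libraries, 63.7, 71.7 and 76.9 CPM in THZ531 libraries and 83.9, 88.9 and 85.5 CPM in YKL5124 libraries, against 106, 88.3 and 113 CPM in DMSO libraries. The THZ531 group of RFC4 (chr3:186789880-186807058) lay below all other libraries, while AZ5576 and YKL5124 each overlapped DMSO replicate 2. The log2 fold change of RFC4 was -0.27 ± 0.08, -0.53 ± 0.08 and -0.25 ± 0.08 under AZ5576, THZ531 and YKL5124. Without DMSO replicate 3, the values of RFC4 under AZ5576 (-0.19, adjusted p = 0.0827) and YKL5124 (-0.18, adjusted p = 0.165) were not called. The AZ5576 call of RFC4 was also lost without AZ5576 replicate 3 (adjusted p = 0.0503), and the YKL5124 call without DMSO replicate 1 (adjusted p = 0.0849), YKL5124 replicate 1 (adjusted p = 0.0591) or YKL5124 replicate 3 (adjusted p = 0.0616), with DESeq2 (adjusted p = 0.0918), with rows summed (adjusted p = 0.0665) or with upper quartile scaling (adjusted p = 0.0842). PCNA, the clamp itself, rose under THZ531 (0.78, adjusted p = 2.36e-08), with -0.05 under AZ5576 and -0.11 under YKL5124, neither called.

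Of the 4 genes of nucleotide supply, AZ5576 raised 3 and lowered 1, THZ531 raised 2, and YKL5124 lowered 1. That is 25% lower and 75% higher under AZ5576, 0% and 50% under THZ531, and 25% and 0% under YKL5124. All genes tested gave 23.1% and 18.6%, 32.9% and 30.4%, and 13.5% and 7.25%. RRM2 (chr2:10120698-10131419), the small subunit of ribonucleotide reductase, fell under AZ5576 and YKL5124. RRM2 had 36.7, 40.0 and 38.9 CPM in AZ5576 libraries, 56.6, 56.7 and 52.8 CPM in THZ531 libraries and 32.5, 29.9 and 29.2 CPM in YKL5124 libraries, against 60.2, 59.7 and 62.1 CPM in DMSO libraries. Each inhibitor group lay below DMSO, that of YKL5124 the furthest. RRM2 gave log2 fold changes of -0.66 ± 0.08 (adjusted p = 2.59e-08) under AZ5576 and -0.99 ± 0.08 (adjusted p = 2.37e-11) under YKL5124, and -0.13 (adjusted p = 0.113) under THZ531. RRM2 was called lower under THZ531 with library size alone (-0.42, adjusted p = 1.2e-05) and with fly scaling (-0.50, adjusted p = 0.000184). The same call was made with the 6 libraries compared alone (-0.17, adjusted p = 0.0279) and without AZ5576 replicate 2 (-0.16, adjusted p = 0.0432). THZ531 against YKL5124 gave 0.86 ± 0.08 (adjusted p = 9.37e-11).

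The large subunit, RRM1 (chr11:4094707-4138876), moved less. RRM1 had 554, 608 and 509 CPM in AZ5576 libraries, 544, 518 and 491 CPM in THZ531 libraries and 459.5, 439 and 406 CPM in YKL5124 libraries, against 473, 502 and 482 CPM in DMSO libraries. AZ5576 libraries lay above DMSO, with 0.20 ± 0.06 (adjusted p = 0.0149), but the value was -0.0013 with fly scaling and 0.074 with library size alone, neither called, and was not called without AZ5576 replicate 2 (0.14, adjusted p = 0.0757) or DMSO replicate 1 (0.18, adjusted p = 0.0635). Under THZ531, where RRM1 gave 0.09 (adjusted p = 0.214), it was called lower with library size alone (-0.20, adjusted p = 0.00989) and fly scaling (-0.27, adjusted p = 0.0387). AZ5576 against YKL5124 gave 0.36 ± 0.06 (adjusted p = 0.000207).

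TYMS (chr18:657604-673578), thymidylate synthase, and TK1 (chr17:78174075-78187233), the thymidine kinase, were higher under AZ5576 and THZ531. TYMS had 353, 347 and 331 CPM in AZ5576 libraries, 407, 442 and 429.7 CPM in THZ531 libraries and 274, 289 and 311 CPM in YKL5124 libraries, against 293, 256 and 297 CPM in DMSO libraries. Both groups lay above DMSO for TYMS, with 0.28 ± 0.06 (adjusted p = 0.000693) under AZ5576 and 0.60 ± 0.06 (adjusted p = 2.54e-09) under THZ531, and YKL5124 gave 0.05 (adjusted p = 0.666). With fly scaling the TYMS values were 0.084 (adjusted p = 0.664) under AZ5576 and 0.22 (adjusted p = 0.101) under THZ531, neither called. TK1 had 144, 128 and 141 CPM in AZ5576 libraries, 135, 149 and 138 CPM in THZ531 libraries and 109, 117 and 124 CPM in YKL5124 libraries, against 119, 109 and 116 CPM in DMSO libraries. TK1 gave 0.27 ± 0.07 under AZ5576 and 0.29 ± 0.07 under THZ531, both above DMSO with no overlap, but under THZ531 the value was -0.076 with fly scaling and 0.0013 with library size alone. The AZ5576 call of TK1 was lost as well, with 0.076 (adjusted p = 0.704) with fly scaling and 0.15 (adjusted p = 0.0871) with library size alone.

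UHRF1 and SLBP both fell under YKL5124, as did 13.5% of all genes tested. UHRF1 (chr19:4903080-4962154) helps to copy DNA methylation to the new strand. UHRF1 had 80.7, 76.1 and 72.5 CPM in AZ5576 libraries, 67.7, 78.7 and 78.4 CPM in THZ531 libraries and 61.5, 65.3 and 61.1 CPM in YKL5124 libraries, against 79.4, 72.4 and 76.0 CPM in DMSO libraries. The YKL5124 group lay below all other libraries, with -0.28 ± 0.07 (adjusted p = 0.00578), against 0.01 under AZ5576 and -0.02 under THZ531. Under THZ531, UHRF1 was called lower with library size alone (-0.31, adjusted p = 0.000454) and with fly scaling (-0.38, adjusted p = 0.00397). AZ5576 against YKL5124 gave 0.29 ± 0.07 (adjusted p = 0.00765), and without AZ5576 replicate 1 this was 0.24 (adjusted p = 0.0648), with library size alone 0.18 (adjusted p = 0.0863) and with fly scaling 0.17 (adjusted p = 0.503).

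SLBP (chr4:1692800-1712555) binds the stem-loop of histone mRNAs, which are made in S phase. SLBP had 54.7, 64.6 and 59.2 CPM in AZ5576 libraries, 83.1, 78.9 and 77.1 CPM in THZ531 libraries and 48.1, 44.8 and 44.6 CPM in YKL5124 libraries, against 63.9, 70.9 and 68.4 CPM in DMSO libraries. THZ531 libraries lay above DMSO, YKL5124 libraries below it, and AZ5576 overlapped it. SLBP gave log2 fold changes of -0.20 ± 0.07 (adjusted p = 0.0315) under AZ5576, 0.23 ± 0.07 (adjusted p = 0.00601) under THZ531 and -0.56 ± 0.08 (adjusted p = 1.16e-06) under YKL5124. The AZ5576 call was lost with DESeq2 (adjusted p = 0.0692), with upper quartile scaling (adjusted p = 0.111), with the 6 libraries compared alone (adjusted p = 0.0565) and without DMSO replicate 2 (adjusted p = 0.095), DMSO replicate 3 (adjusted p = 0.0793), AZ5576 replicate 1 (adjusted p = 0.21), AZ5576 replicate 3 (adjusted p = 0.069) or THZ531 replicate 2 (adjusted p = 0.0504). The THZ531 call was lost without THZ531 replicate 1 (0.18, adjusted p = 0.068), and the THZ531 value had the other sign with fly scaling (-0.13) and with library size alone (-0.056).

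The inhibitors were also compared with each other. AZ5576 against THZ531 called 17 members higher and 14 lower, against 27.8% and 27.1% of all genes tested, with 4 of the 5 E2F genes higher under AZ5576. Of these 4, E2F7 had the other sign with rows summed (-0.11, adjusted p = 0.645). The call of E2F8 was lost without THZ531 replicate 3 (1.16, adjusted p = 0.059), and that of E2F1 without AZ5576 replicate 3 (0.20, adjusted p = 0.0655). AZ5576 against YKL5124 called 16 higher and 1 lower, against 6.23% and 9.6% of all genes tested. These 16 held all 4 genes of nucleotide supply, 6 of the 10 licensing genes, and UHRF1 and SLBP, and CCND1 was the one lower (-0.66 ± 0.18, adjusted p = 0.0132). Without AZ5576 replicate 1, 9 were higher in that comparison. THZ531 against YKL5124 called 19 higher and 13 lower, against 30.5% and 30.5% of all genes tested. With library size alone the counts were 21 higher and 9 lower for AZ5576 against THZ531, 6 and 2 for AZ5576 against YKL5124, and 14 and 18 for THZ531 against YKL5124. With fly scaling they were 20 and 7, 2 and 1, and 11 and 16 for the same 3 comparisons.

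Summed over the 41 genes, the share of human counts was lower under each inhibitor. It was 0.369%, 0.375% and 0.370% in AZ5576 libraries, 0.342%, 0.339% and 0.330% in THZ531 libraries and 0.345%, 0.340% and 0.345% in YKL5124 libraries, against 0.412%, 0.411% and 0.412% in DMSO libraries. No inhibitor library reached the DMSO range, and the exact two-sided permutation test gave p = 0.1 for each inhibitor, the smallest that 3 against 3 libraries allow. Members were also set against fly counts, which were summed over all fly rows and not over 1 row per gene. That ratio serves to compare libraries alone. Per 1000 fly counts, the members held 32.8 ± 2.5 counts under AZ5576, 29.7 ± 0.69 under THZ531 and 30.8 ± 1.2 under YKL5124, against 38.2 ± 4.7 under DMSO (SD, n = 3 each), again with no overlap with DMSO (exact permutation p = 0.1 each). These sums are not centred on the middle of all genes, which also moved down. Its log2 fold change under AZ5576, THZ531 and YKL5124 was -0.12, -0.29 and -0.02 with library size alone. With fly scaling it was -0.17, -0.37 and -0.07. Whether the summed members fell more than other genes was not tested.

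Of 76 partner genes of the same pathway, 75 were tested. AZ5576 lowered 26 and raised 10, or 34.7% and 13.3%, against 23.1% and 18.6% of all genes tested. THZ531 lowered 22 and raised 21, or 29.3% and 28%, against 32.9% and 30.4%. YKL5124 lowered 29 and raised 1, or 38.7% and 1.33%, against 13.5% and 7.25%. The partners had median log2 fold changes of -0.05, -0.06 and -0.16 under AZ5576, THZ531 and YKL5124, against 0.01, -0.00 and -0.00 for all genes tested. Under AZ5576, E2F6, a repressive E2F, fell by 1.67 on the log2 scale (3.96 to 5.11 CPM, against 13.6 to 16.1 CPM in DMSO), USP1, a deubiquitinase of PCNA, fell by 0.84, and CDK6, the partner of D cyclins, rose by 0.49. Under THZ531, RBL1, a relative of the retinoblastoma protein, fell by 2.20 (11.1 to 12.6 CPM, against 52.5 to 54.6 CPM in DMSO) and the chromatin assembly gene CHAF1A fell by 2.08. TFDP1, the dimer partner of E2F factors, rose by 2.02 under THZ531 (246 to 247 CPM, against 55.0 to 64.2 CPM in DMSO), and the CDK inhibitor gene CDKN2D rose by 1.30. Under YKL5124, FBXO5, an inhibitor of the anaphase-promoting complex, fell by 1.21, the kinase gene WEE1 fell by 1.18, and CDK6 rose by 0.25. CDKN1A, which encodes the CDK inhibitor p21, was lower under AZ5576 (-0.71), THZ531 (-0.45) and YKL5124 (-0.55).

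Some members have several counted rows, 1 for each annotated transcript. Many rows of a gene overlap and share reads, and some end at different places. Tested on their own, 135 rows of the 40 genes passed the filter and 26 genes had more than 1 row. Rows that were called against DMSO and differed at least 2-fold from the row used were found in CCNE2, E2F7, GINS4, ORC6 and POLA1, genes named here after their values were seen. In E2F7, a row that ends 23.3 kb before the end of the row used (ENST00000551058, chr12:77044534-77050746, minus strand) held 30, 35 and 36 counts in THZ531 libraries, 1, 0 and 0 in AZ5576 libraries and 0, 0 and 0 in YKL5124 libraries, against 0, 2 and 3 in DMSO libraries. It was higher under THZ531 (adjusted p = 1.16e-09), where the row used was lower (-2.24), and 26.1% of all rows tested were higher and 26.8% lower under THZ531. With the rows of E2F7 summed, AZ5576 against THZ531 was -0.11 and THZ531 against YKL5124 was 0.38, the other sign from the row used.

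In GINS4, a row that ends 6.99 kb before the end of the row used (ENST00000520710) held 3, 2 and 10 counts in AZ5576 libraries, 11, 7 and 6 in THZ531 libraries and 9, 7 and 12 in YKL5124 libraries, against 32, 17 and 26 in DMSO libraries. It was lower under AZ5576 (-1.99 ± 0.42, adjusted p = 0.000417), THZ531 (-1.18) and YKL5124 (-1.16 ± 0.37, adjusted p = 0.0324), so under AZ5576 and YKL5124 it went the other way from the gene's call. In CCNE2, 1 row gave -2.01 under AZ5576 (adjusted p = 0.0288) and another -3.04 under YKL5124 (adjusted p = 0.000118), where the row used was also lower (-0.69 and -0.96).

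In POLA1, a row that ends 155 kb before the end of the row used (ENST00000494204, chrX:24812830-24841983, plus strand) held 24, 33 and 37 counts in THZ531 libraries, against 14, 6 and 11 in DMSO libraries, a log2 fold change of 2.03 ± 0.31 (adjusted p = 1.04e-06). In ORC6, a row that ends 3.86 kb before the end of the row used (ENST00000569239, chr16:46689659-46694519, plus strand) had 3.99, 3.76 and 3.34 CPM in AZ5576 libraries, 14.2, 15.2 and 15.7 CPM in THZ531 libraries and 3.52, 4.47 and 4.41 CPM in YKL5124 libraries, against 14.2, 12.3 and 11.7 CPM in DMSO libraries. It was lower under AZ5576 (-1.79 ± 0.16, adjusted p = 6.81e-11) and YKL5124 (-1.61 ± 0.15, adjusted p = 8.98e-10), while 16.8% and 8.55% of all rows tested were lower. The row used for ORC6 gave -0.21 (adjusted p = 0.106) and -0.47 (adjusted p = 0.00103) in the same comparisons.

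**Figure D4:**
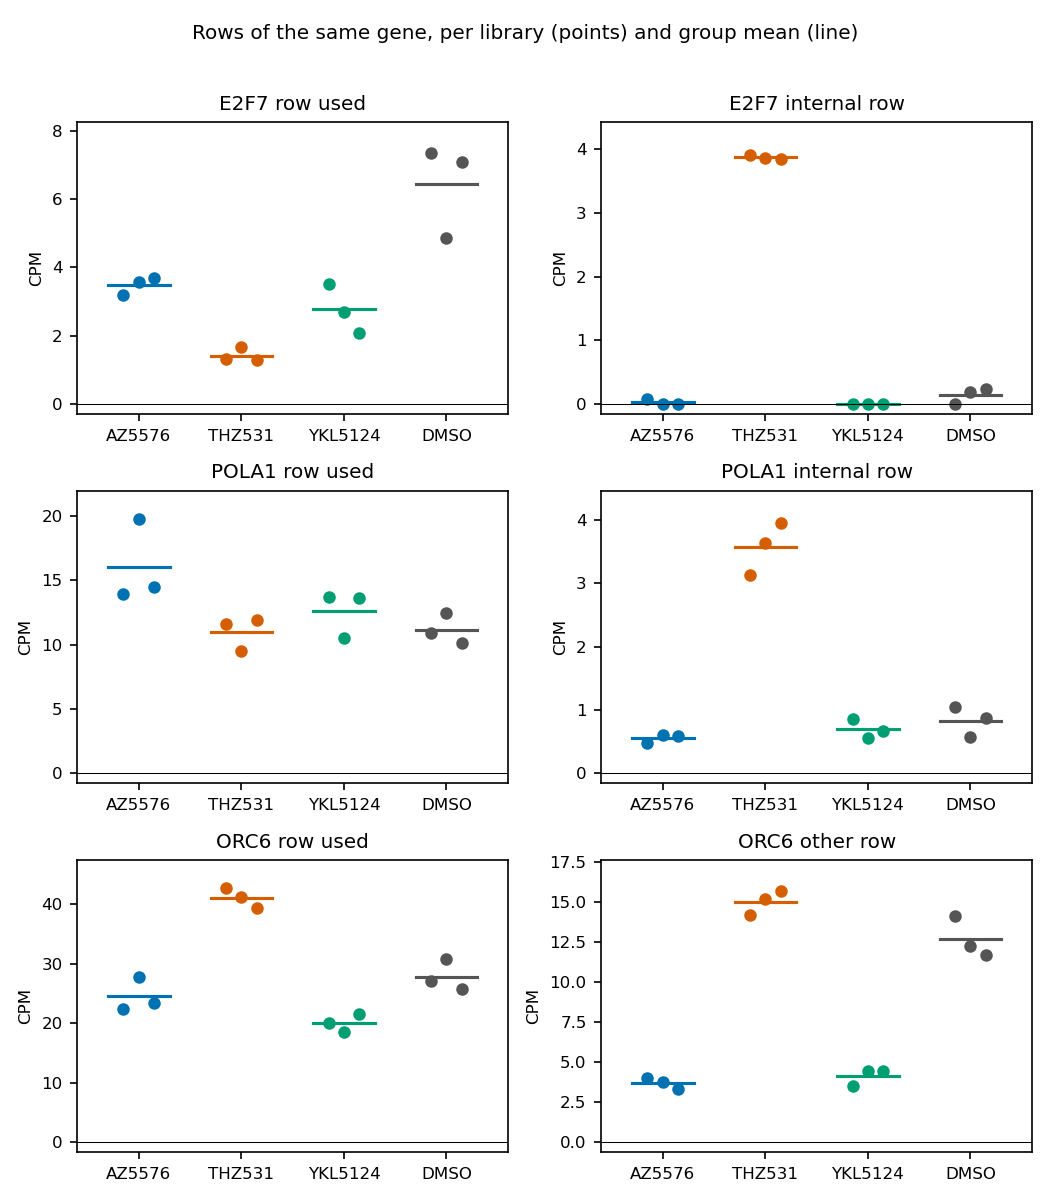
Level in CPM of the row used (left) and of another row of the same gene (right) for E2F7, POLA1 and ORC6, in each library (points) with the mean of 3 libraries (line). The internal rows of E2F7 and POLA1 are highest in THZ531 libraries, and the other row of ORC6 is low in AZ5576 and YKL5124 libraries.

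Across the 40 genes, Spearman's rho of the log2 fold change with gene length was 0.07 under AZ5576, -0.13 under THZ531 and 0.08 under YKL5124, and across all 15831 genes tested it was -0.02, -0.17 and 0.01. These are descriptions across genes, which share libraries and are not independent replicates.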

How the data were processed

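The values that the authors deposited are raw read counts in whole numbers, with 295100 rows and 1 column for each of 12 libraries. Per the labels' protocols, RNA from THP-1 cells was alkylated and made into 3′ end libraries with a QuantSeq forward kit. Builds hg38 and dm6 appear in the submitters' processing notes, as do edgeR 3.32.1, Trim Galore 0.6.5 and bcl2fastq 2.17.1.14. Which aligner, annotation and strand setting were used, and how reads with several matches were handled, is not given in the sources used here.

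Gene names came from GENCODE v29 (GRCh38), where 251529 of the 256726 human rows were found. The other 5197 rows, 0.655% to 0.719% of a library's human counts, and 38374 fly rows stayed out of library sizes and tests. Rows of a gene overlap, so the row with the highest total over 12 libraries stood for the gene. That row was also the highest in DMSO for all 41 members. Of genes with identical counts, 94 were dropped.

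Genes passing filterByExpr (minimum count 10) entered 1 quasi-likelihood fit of all 12 libraries with group as the term, in edgeR 4.0.16 (R 4.3.3), with TMM factors and Benjamini-Hochberg adjustment over 15831 genes at a threshold of 0.05. Standard errors were computed as the absolute log2 fold change over the root of F. The fit was tested on simulated data. Members and lists were chosen with earlier results of these data known. Values in every library are given for the 2 members of each role with the smallest adjusted p in a comparison with DMSO, and the partners named are the 2 with the smallest adjusted p in each direction, with CDKN1A as background. Of these partners, 1 is not reported here. PCNA, ORC6 and other members are named by fold change. Replicates of a group differed by 1.73 to 4.97 times the variance of sampling noise per gene, so none was counted as a repeat. The alternatives were RLE, upper quartile, library-size and fly scaling, no filter or a minimum count of 30, rows summed, the row chosen in DMSO, the 6 libraries compared alone, a replicate block, DESeq2 1.42.0, and each library left out. Rows tested on their own were added after seeing the data.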

Additional observations from a re-analysis of the deposited data

How the results depend on the processing

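The counts of members lower than DMSO stayed within 1.5 times their values under every alternative run, and leaving out 1 library gave 12 to 17 under AZ5576, 20 to 22 under THZ531 and 17 to 22 under YKL5124. Leaving out 1 library gave 4 to 6 members higher under AZ5576, 10 to 12 under THZ531 and 0 to 1 under YKL5124. Between inhibitors the same runs gave 15 to 18 higher and 10 to 15 lower for AZ5576 against THZ531, 9 to 16 higher and 1 lower in every run for AZ5576 against YKL5124, and 17 to 20 higher and 11 to 13 lower for THZ531 against YKL5124. Counts of members higher depended on scaling. With library size alone they were 2 under AZ5576 and 6 under THZ531, and for AZ5576 against YKL5124 they were 6 higher and 2 lower. With fly scaling they were 0 under AZ5576, 2 under THZ531, 0 under YKL5124, 2 for AZ5576 against YKL5124 and 11 for THZ531 against YKL5124. Members lower in AZ5576 against THZ531 were 9 with library size alone, and 7 when scaled to fly counts. The single member higher under YKL5124 became 2 with upper quartile scaling and 0 with no filter, with rows summed and with rows tested on their own. The cause of these shifts was not tested.

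Values of single members called with the settings used here or with the alternative, and of the other sign with the alternative, were these. Under AZ5576, RRM1 was -0.0013 with fly scaling. Under THZ531, library size alone gave -0.12 for MCM4, -0.012 for MCM7, -0.20 for RRM1 and -0.056 for SLBP, and fly scaling gave -0.20 for MCM4, -0.076 for MCM5, -0.084 for MCM7, -0.27 for RRM1, -0.076 for TK1 and -0.13 for SLBP. For AZ5576 against THZ531, MCM7 was 0.0027 with library size alone and 0.0083 when scaled to fly counts, and E2F7 was -0.11 with rows summed. For THZ531 against YKL5124, library size alone gave -0.26 for CCND3, -0.22 for E2F1, -0.22 for CDT1, -0.019 for RRM1, -0.0075 for TK1 and -0.012 for UHRF1, fly scaling gave -0.29 for CCND3, -0.0034 for MCM4, -0.046 for RRM1, -0.037 for TK1 and -0.040 for UHRF1, and rows summed gave 0.38 for E2F7. Over all members, comparisons and alternatives, 5079 values kept their direction and side of the threshold, 230 kept their direction and lost the call, 75 kept their direction and gained one, 26 changed sign as listed and 110 changed sign with no call in either.

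The replicate numbers did not pair the libraries: deviations of same-numbered libraries correlated at -0.10 to 0.07 over 18 pairs, and those of different numbers at -0.09 to 0.11. With a replicate block, AZ5576 raised 5 members and lowered 16, THZ531 raised 12 and lowered 21, and YKL5124 raised 1 and lowered 22. Low counts limit E2F7, E2F8, CCNE2 and CLSPN most.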
